A study of Mus musculus with 42 samples.

Results

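The epidermal kallikreins are a run of secreted serine proteases, here Klk5 to Klk14, chosen as the probe sets whose gene symbol is one of these 10 names. Of the 10 genes, 8 (Klk5 to Klk12) had a probe set among the 20672 of the deposited table, with 1 probe set each, and Klk13 and Klk14 were not analysed here. RNA was taken on Affymetrix Mouse430V2 arrays from skin of female db/db mice, which lack the leptin receptor and are diabetic, 10 to 12 weeks old by the study's methods, with splinted full-thickness wounds of 6 mm; the labels call the strain C57BL/6, whereas the methods name the BKS background. The day 7 groups received IL-22-Fc (interleukin-22 fused to an antibody Fc part, 5 arrays), VEGF (20 µg by the labels, 5 arrays), PDGF (50 µg, 3 arrays) or the control protein (5 arrays) on the wound every other day through day 6, and a 2 mm ring of skin around the wound was taken. The 24 h groups were wounded skin after treatment with IL-22-Fc (50 µg, 5 arrays), VEGF (20 µg, 5 arrays), PDGF (50 µg, 5 arrays) or the control protein (4 arrays). As control protein the labels give an antibody to ragweed and the methods control Fc, and the methods give 50 µg for every protein where the design text gives 20 µg for IL-22-Fc. Untreated baseline skin made the last group (5 arrays). Its labels do not give the genotype and its samples carry another run of sample numbers than the wounds, so any difference of mouse or handling cannot be told apart from wounding. The labels do not say whether each array is a separate mouse, so p-values measure the spread between these arrays.

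Kallikreins are made mainly by keratinocytes of the upper epidermis, where they are secreted as inactive precursors and activate one another in a cascade. In the stratum corneum they cut the desmosomal proteins that hold corneocytes together, so that cells can be shed, and some activate protease-activated receptors or process antimicrobial peptides and cytokine precursors. Spink5, which encodes the inhibitor LEKTI, restrains them, and loss of LEKTI causes the skin disease Netherton syndrome in humans. IL-22 acts on keratinocytes through a receptor that activates the transcription factor STAT3, whereas VEGF acts mainly on endothelial cells and PDGF on fibroblasts and pericytes.

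The 10 genes lie side by side on mouse chromosome 7, in the order Klk14, Klk13, Klk12, Klk11, Klk10, Klk9, Klk8, Klk7, Klk6 and Klk5, with no other kallikrein gene between them and with Klk4 next after Klk5, then Klk15 and the Klk1 genes with pseudogenes among them. RefSeq gave 12 promoter windows for the 10 genes, each 300 bases from 250 bases before to 50 bases after a start site (build GRCm38.p6, all on the + strand). The windows of Klk9, which had the largest difference after IL-22-Fc, Klk10, the one with a match to the STAT letters, and Klk5, the member that did not pass the test after IL-22-Fc, are shown 5′ to 3′, with capitals for the match.
Klk9, chr7:43791641-43791940, + strand: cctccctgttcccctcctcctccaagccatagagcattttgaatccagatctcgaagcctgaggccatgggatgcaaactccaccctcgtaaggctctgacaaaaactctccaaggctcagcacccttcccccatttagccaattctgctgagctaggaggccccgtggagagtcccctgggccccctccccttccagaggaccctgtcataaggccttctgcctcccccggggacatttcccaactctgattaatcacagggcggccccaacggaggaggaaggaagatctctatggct
Klk10, chr7:43780804-43781103, + strand: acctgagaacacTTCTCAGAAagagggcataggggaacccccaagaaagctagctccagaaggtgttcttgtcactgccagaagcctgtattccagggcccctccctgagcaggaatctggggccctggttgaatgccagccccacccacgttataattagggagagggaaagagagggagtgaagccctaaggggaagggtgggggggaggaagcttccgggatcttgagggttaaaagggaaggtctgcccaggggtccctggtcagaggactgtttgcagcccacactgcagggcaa
Klk5, chr7:43842019-43842318, + strand: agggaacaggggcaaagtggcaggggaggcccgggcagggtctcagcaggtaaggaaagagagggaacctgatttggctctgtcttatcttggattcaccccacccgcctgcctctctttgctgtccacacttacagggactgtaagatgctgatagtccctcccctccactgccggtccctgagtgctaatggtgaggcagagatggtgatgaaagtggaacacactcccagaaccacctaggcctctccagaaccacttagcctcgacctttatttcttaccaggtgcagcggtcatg
The letters TTCNNNGAA, read by STAT factors, occurred in 1 of the 12 windows, as TTCTCAGAA starting 238 bases before the start site of Klk10, and in 8.3% of all 32851 mouse promoter windows. The AP-1 letters TGANTCA, the grainyhead letters AACCNGTT and the letters TATAAA were searched on both strands too and were in none of the 12 windows, against 7.81%, 2.09% and 13.6% of all windows. A match is a description of letters only, and no match says nothing of a factor's binding.

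Values are log2 of the deposited RMA intensity, so a difference of 1 is a doubling, and levels of different genes are not set against each other because each probe set has its own response. As a floor, 3 Y-linked genes, which female mice lack, ranged between 2.31 and 3.78 over the 42 arrays, and all 8 kallikreins were above that range on every array. A member was called where limma's test gave a Benjamini-Hochberg adjusted p under 0.05 over all 20672 probe sets. Each array correlated with the others of its group at a median r of 0.945 to 0.995, and the lowest was replicate 5 of untreated skin. On day 7 the PDGF arrays had lower signal at the 5′ control probe sets of Gapdh and Actb, with a mean of 12.07 ± 0.14 (SD, n = 3) against 13.09 ± 0.09 in control wounds (SD, n = 5). The 3′ control probe sets were not compared, so RNA or labelling quality and a lower level of these genes cannot be told apart. In bulk skin, fewer epidermal cells and less RNA per cell cannot be told apart.

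On day 7 the kallikreins were higher in IL-22-Fc wounds and lower in VEGF wounds than in control wounds. Against control, 7 of the 8 were higher after IL-22-Fc and 1 was not called, where 2.81% of all probe sets were called higher, and the median difference of the 8 was 0.80 against -0.003 over all probe sets. After VEGF, 7 of the 8 were lower and 1 was not called, where 8.74% of all probe sets were called lower, with a median of -0.65 against -0.007 over all. After PDGF, 3 were higher, 1 was lower and 4 were not called, where 18.9% of all probe sets were called higher and 34.9% in either direction. The groups did not overlap for 7 members after IL-22-Fc and for 5 after VEGF, and the share of all probe sets without overlap was not counted.

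**Figure D1:**
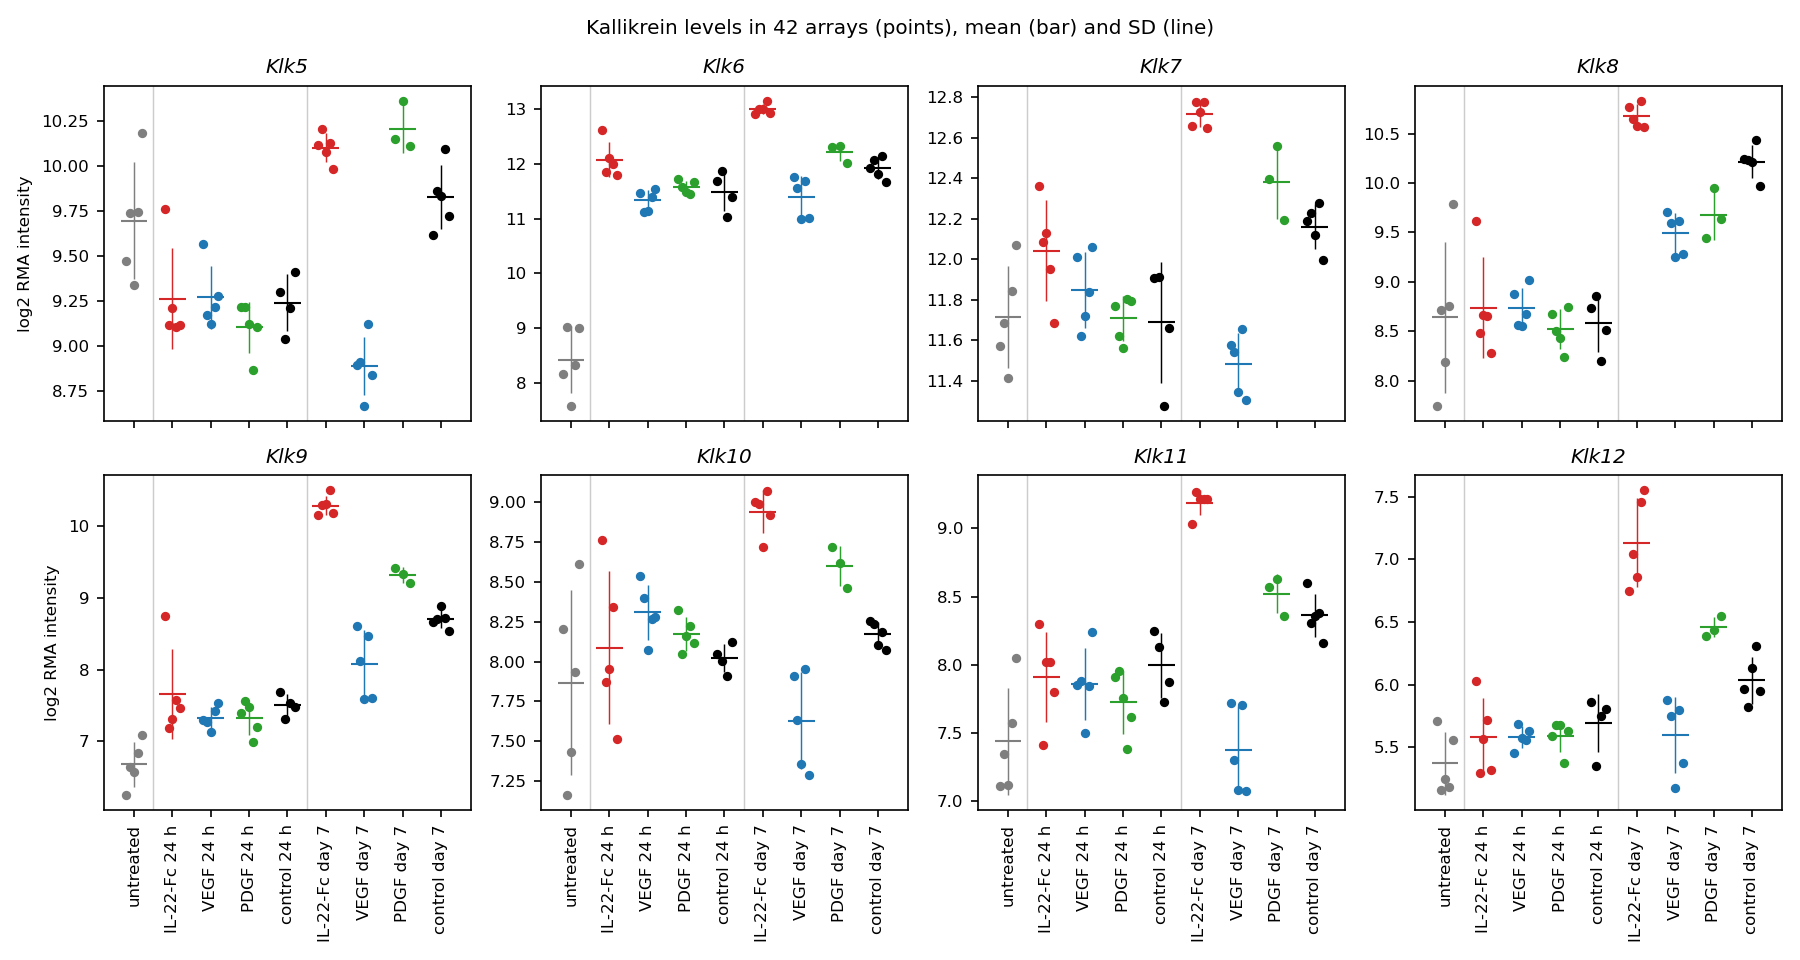
Log2 RMA intensity of the 8 measured kallikreins on each of the 42 arrays (points), with the group mean (bar) and SD (line), for untreated skin, the 4 groups at 24 h and the 4 groups at day 7. The IL-22-Fc day 7 arrays lie above the control day 7 arrays without overlap for every gene but Klk5, and VEGF day 7 arrays lie below without overlap for Klk5, Klk7, Klk8, Klk10 and Klk11.

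Klk9 had the largest difference after IL-22-Fc. Its level was 10.16, 10.29, 10.31, 10.50 and 10.18 in IL-22-Fc wounds on day 7, against 8.66, 8.71, 8.89, 8.71 and 8.54 in control wounds. Every IL-22-Fc array lay over 1 log2 unit above every control array, the log2 difference was 1.58 ± 0.16 (SE, 3.00-fold), and the adjusted p by limma was 1.16e-06. Klk9 in VEGF wounds was 8.60, 8.11, 7.60, 8.47 and 7.60, where replicate 1 reached the control range, and it was lower by limma (-0.63 ± 0.16, adjusted p = 0.00796). Human KLK9 is a chymotrypsin-like enzyme of which little is known in skin.

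Klk6, a trypsin-like kallikrein first studied in the brain and also made by keratinocytes, was 12.91, 13.00, 13.00, 13.14 and 12.93 in IL-22-Fc wounds, against 11.92, 12.07, 11.81, 12.14 and 11.66 in control wounds. It was 2.11-fold higher (log2 1.07 ± 0.14, adjusted p = 3.52e-05 by limma) with no overlap. In VEGF wounds it was 11.75, 11.55, 10.99, 11.69 and 11.02, which overlaps the control range, and it was 1.44-fold lower (adjusted p = 0.0122). The low VEGF arrays for Klk6 and Klk9, replicates 3 and 5, were the 2 lowest of their group for all 8 members. The mean level of 8 wound keratinocyte genes (such as Krt6a, Krt16 and Sprr1b) was 11.37 and 11.61 on those 2 arrays and 12.49 to 13.07 on the other 3 VEGF arrays, and without those 2 arrays (a setting chosen after seeing the data) 5 of the 8 were lower than control, while Klk6 (-0.26, adjusted p = 0.174 by limma) and Klk9 (-0.31, adjusted p = 0.0998) no longer passed.

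Klk12, whose human counterpart is a trypsin-like enzyme, varied more between the IL-22-Fc arrays of day 7 (SD 0.36, n = 5) than the other members. Its level was 6.75, 7.05, 6.86, 7.46 and 7.55 in IL-22-Fc wounds, against 5.96, 5.82, 6.13, 6.31 and 5.95 in control wounds, a 2.14-fold difference (log2 1.10 ± 0.15, adjusted p = 1e-04 by limma). In VEGF wounds Klk12 was 5.88, 5.76, 5.18, 5.80 and 5.38, which overlaps control, and it was the member that did not pass the test (-0.44 ± 0.15, adjusted p = 0.0621).

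Klk11, a trypsin-like kallikrein, was 9.03, 9.26, 9.22, 9.21 and 9.22 in IL-22-Fc wounds, against 8.60, 8.31, 8.36, 8.38 and 8.16 in control wounds. It was 1.77-fold higher (log2 0.83 ± 0.12, adjusted p = 0.000171 by limma). In VEGF wounds it was 7.72, 7.30, 7.08, 7.71 and 7.07, all below the control range, and had the largest VEGF difference of the 8 (1.98-fold lower, adjusted p = 8.4e-06). Klk11 thus differed by 1.81 ± 0.12 between IL-22-Fc and VEGF wounds, a 3.51-fold difference.

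Of Klk5 and Klk7, main desquamation enzymes, Klk7 was called after IL-22-Fc and Klk5 was not, and the 2 were not compared by a test. Klk5, a trypsin-like enzyme that can activate itself and then other kallikreins, was 10.11, 10.20, 10.07, 10.13 and 9.98 in IL-22-Fc wounds, against 9.62, 9.86, 9.83, 10.09 and 9.72 in control wounds. One control array lay within the IL-22-Fc range, and the difference of 0.28 ± 0.09 was not called (adjusted p = 0.103 by limma). The exact two-sided permutation test of this gene alone gave p = 0.0238. In VEGF wounds Klk5 was 8.89, 8.91, 8.67, 9.12 and 8.84, below every control array, and 1.91-fold lower (adjusted p = 7.4e-07).

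Klk7, the chymotrypsin-like enzyme of the stratum corneum that cuts corneodesmosin, was 12.66, 12.78, 12.73, 12.78 and 12.65 in IL-22-Fc wounds, against 12.19, 12.23, 12.12, 12.28 and 11.99 in control wounds (1.47-fold higher, adjusted p = 0.000341 by limma). In VEGF wounds it was 11.58, 11.54, 11.35, 11.66 and 11.31 (1.60-fold lower, adjusted p = 1.25e-05). The 3 groups were fully separated, with IL-22-Fc above control and VEGF below it.

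Klk8, known as neuropsin and in mice tied to keratinocyte proliferation, had the smallest called IL-22-Fc difference. It was 10.77, 10.64, 10.57, 10.83 and 10.56 in IL-22-Fc wounds, against 10.24, 10.23, 10.21, 10.43 and 9.97 in control wounds (1.38-fold higher, adjusted p = 0.0165 by limma). This call was lost without replicate 4 of IL-22-Fc (adjusted p = 0.051) and without replicate 5 of control (0.0542), and with all 42 arrays in one fit (0.303). In VEGF wounds Klk8 was 9.71, 9.60, 9.25, 9.61 and 9.28, all below control (1.65-fold lower, adjusted p = 0.000101).

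Klk10, whose human counterpart has little known protease activity, was 9.00, 8.99, 8.72, 9.07 and 8.92 in IL-22-Fc wounds, against 8.25, 8.24, 8.10, 8.19 and 8.07 in control wounds (1.71-fold higher, adjusted p = 0.000203 by limma). It was 7.91, 7.64, 7.36, 7.96 and 7.29 in VEGF wounds (1.46-fold lower, adjusted p = 0.00225). As for Klk7, no array of one group lay in the range of another.

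Set against each other, IL-22-Fc and VEGF wounds were apart for every member. All 8 kallikreins were higher in IL-22-Fc than in VEGF wounds on day 7, where 12.1% of all probe sets were called higher, with no overlap for any of them and differences from 1.19 (Klk8) to 2.21 (Klk9). These comparisons share the control or the treated arrays, so their values stand side by side and are not separate evidence. The exact permutation test over 5 against 5 arrays gave its smallest possible p, 0.00794, for the 7 members called after IL-22-Fc and, after VEGF, for Klk5, Klk7, Klk8, Klk10 and Klk11. This p is reached only where the 2 groups do not overlap, which was not counted over all probe sets.

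**Figure D2:**
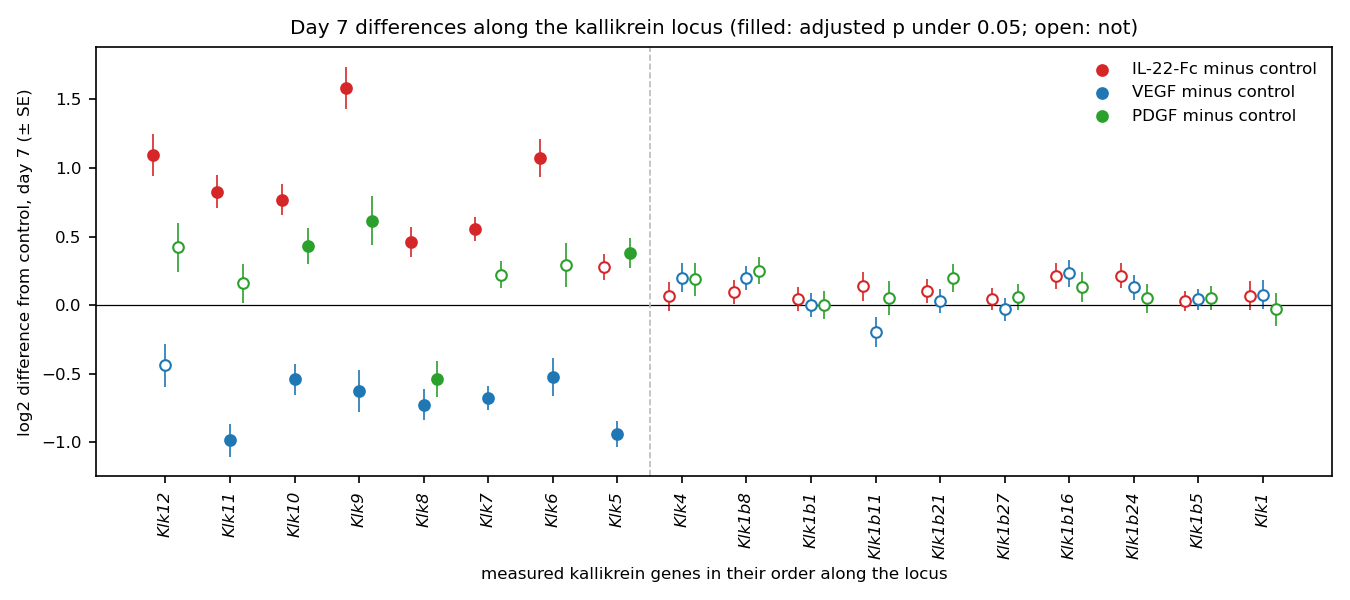
Log2 difference from control on day 7 (± SE) for the 18 measured kallikrein genes of the locus in their order on the chromosome, for IL-22-Fc, VEGF and PDGF (filled points passed the adjusted p of 0.05, open points did not). Left of the dashed line, from Klk12 to Klk5, the IL-22-Fc points are filled and above 0 for all but Klk5 and the VEGF points filled and below 0 for all but Klk12, and no gene from Klk4 onward passed in any of the 3 comparisons.

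The remaining kallikreins lay on average within the floor range, so a lack of calls there is not a contrast within the gene family. Of 11 other kallikrein probe sets, Klk4, the Klk1 genes and the plasma kallikrein Klkb1, which lies elsewhere, none was called by limma in any of the 3 day 7 comparisons with control (2 in each had an unadjusted p under 0.05), and their median differences were 0.10 after IL-22-Fc, 0.05 after VEGF and 0.06 after PDGF. Their mean level was 3.47 ± 0.05 in IL-22-Fc wounds and 3.37 ± 0.02 in control wounds on day 7 (SD, n = 5 each), within the range of the Y-linked genes. At that level a change may not be measurable, and the Klk1b genes are near copies whose probe sets can share RNA. Between IL-22-Fc and VEGF wounds of day 7, 1 of the 11 was called higher, where 12.1% of all probe sets were.

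PDGF gave another pattern on day 7. Klk5 was 10.15, 10.36 and 10.11 in PDGF wounds (1.30-fold higher than control, adjusted p = 0.00932 by limma), and Klk9 was 9.42, 9.33 and 9.20 (1.53-fold higher, adjusted p = 0.0103). Klk10 was 8.72, 8.62 and 8.47 (1.35-fold higher, adjusted p = 0.0149), whereas Klk8 was 9.45, 9.95 and 9.63, below every control array (1.45-fold lower, adjusted p = 0.00236). Klk6, Klk7, Klk11 and Klk12 differed by 0.16 to 0.42 and were not called. With the 5′ control level as a covariate none of the 8 was called and the Klk8 difference became 0.14. That level was 11.92 to 12.18 on the PDGF arrays and 12.89 or higher on every other day 7 array. The covariate thus nearly repeats the PDGF group and cannot settle these calls. Without replicate 1 of PDGF 2 were called. The 4 of 8 called stand beside the 34.9% of all probe sets called in either direction.

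Between treatments, Klk5 differed by -0.10 ± 0.11 between IL-22-Fc and PDGF wounds and was not called (adjusted p = 0.501 by limma). The other 7 were higher in IL-22-Fc than in PDGF wounds, where 17.0% of all probe sets were called higher, by 0.33 (Klk7) to 1.00 (Klk8). The Klk10 call (0.34 ± 0.13, adjusted p = 0.0483 by limma) passed in 5 of the 18 fits that left out 1 array. Against PDGF, 7 were lower in VEGF wounds, where 22.7% of all probe sets were called lower, and Klk8 was not called (-0.19 ± 0.13). With the 5′ control level as a covariate, which nearly repeats the PDGF group, none was called in either comparison.

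At 24 h no kallikrein was called against control for any of the 3 proteins, where 0.111%, 0.135% and 1.89% of all probe sets were called in either direction for IL-22-Fc, VEGF and PDGF. At an unadjusted p under 0.05 there were 2 members after IL-22-Fc (Klk6 and Klk7) and 0 after VEGF and after PDGF. By limma Klk6 came closest: it was 12.61, 11.86, 12.11, 11.999 and 11.80 in IL-22-Fc wounds, against 11.68, 11.86, 11.03 and 11.40 in control wounds. The log2 difference was 0.58 ± 0.16, with an adjusted p of 0.41 by limma and a permutation p of 0.0397 (exact, two-sided, this gene alone). By the same permutation test Klk10 in VEGF wounds, 0.29 above control, had p = 0.0238. Against VEGF wounds, with 11.46, 11.12, 11.14, 11.40 and 11.55, Klk6 was higher in IL-22-Fc wounds by 0.74 ± 0.15 (adjusted p = 0.0205), the 1 kallikrein called in that comparison, where 0.189% of all probe sets were called higher. That call was lost without replicate 3 of IL-22-Fc (adjusted p = 0.0534), replicate 2 of VEGF (0.0706) or replicate 3 of VEGF (0.0717). Between IL-22-Fc and PDGF wounds of 24 h none of the 8 was called, where 7.49% of all probe sets were called in either direction, and 2 had an unadjusted p under 0.05 by limma. Klk6 had a difference of 0.49 ± 0.15 with no overlap of the arrays (adjusted p = 0.0525).

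Replicate 1 of IL-22-Fc at 24 h stood above the other 4 arrays of its group for several members. It was 8.75 for Klk9, where the others were 7.18 to 7.58, 9.62 for Klk8, where the others were 8.28 to 8.66, and 9.76 for Klk5, where the others were 9.11 to 9.21. The mean wound keratinocyte level was also highest on this array, 13.28 against 12.24 to 12.75 on the other 4, and its part in these values was not tested. Without this array the count of members called against control at 24 h stayed at 0.

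The difference of the treatment effects between the times was tested in one fit of the 37 wound arrays. The IL-22-Fc effect was larger on day 7 than at 24 h for Klk9 (by 1.43 ± 0.28, adjusted p = 0.00392 by limma), Klk12 (1.21 ± 0.21, adjusted p = 0.00109) and Klk11 (0.91 ± 0.21, adjusted p = 0.0197), where 0.759% of all probe sets passed in that direction. Klk10 had 0.70 ± 0.21 (adjusted p = 0.0745), and passed without replicate 1 of the 24 h IL-22-Fc group (0.87, adjusted p = 0.00652). For Klk5, Klk6, Klk7 and Klk8 the differences of 0.20 to 0.49 were not called. The VEGF effect was lower on day 7 than at 24 h for Klk5, Klk7, Klk8, Klk10 and Klk11, by -0.83 to -0.97, where 6.28% of all probe sets passed in that direction. The PDGF effect was higher on day 7 for Klk5 (0.52 ± 0.17, adjusted p = 0.0184 by limma) and Klk9 (0.80 ± 0.30, adjusted p = 0.0381), where 18.1% passed in that direction. This PDGF count is near the share of all probe sets. Both PDGF calls were lost without replicate 2 of PDGF on day 7. They were also lost with the 5′ covariate, which nearly repeats the PDGF day 7 group.

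**Figure D3:**
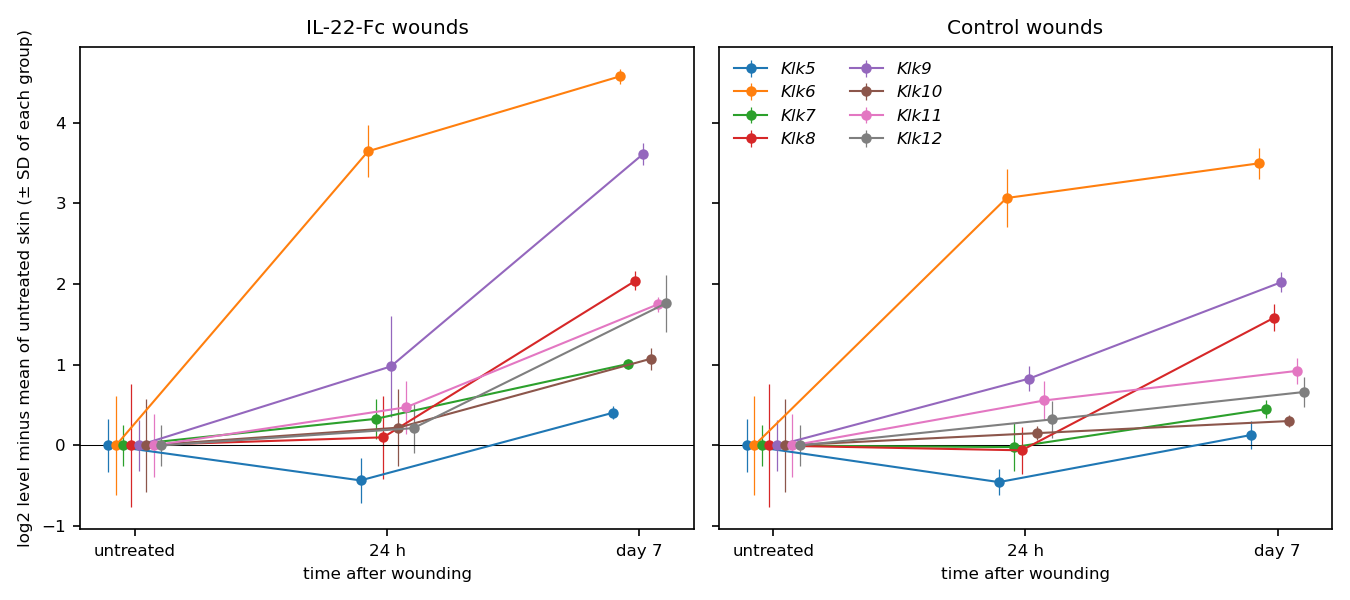
Mean log2 level of each kallikrein minus its mean in untreated skin (± SD of each group) in untreated skin, at 24 h and at day 7, for IL-22-Fc wounds (left) and control wounds (right). Klk6 stood more than 3 log2 units above untreated skin at 24 h in both, and Klk9 reached 3.61 on day 7 in IL-22-Fc wounds against 2.03 in control wounds.

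Control wounds differed from untreated skin in 4 of the 8 genes at 24 h and in 6 on day 7, where 39.5% and 36.8% of all probe sets were called in either direction. The count at 24 h is near the share of all probe sets. Klk6 was 11.68, 11.86, 11.03 and 11.40 in control wounds at 24 h, against 8.17, 9.03, 7.59, 8.32 and 9.01 in untreated skin. That is 8.39-fold higher (log2 3.07 ± 0.20, adjusted p = 1.68e-14 by limma), and on day 7 it was 11.3-fold above untreated skin. Between control wounds of day 7 and 24 h Klk6 was not called (0.43 ± 0.20, adjusted p = 0.112).

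Klk9 and Klk11 were also higher at 24 h than in untreated skin, by 0.83 ± 0.21 and 0.56 ± 0.17, whereas Klk5 was lower by 0.45 ± 0.13 (adjusted p = 0.00551 by limma). Thus 3 of the 8 were higher and 1 lower, where 19.3% of all probe sets were called higher and 20.2% lower. On day 7, 6 of the 8 were higher in control wounds than in untreated skin, where 18.2% were called higher: Klk6, Klk9 (4.07-fold), Klk8 (2.98-fold), Klk11 (1.90-fold), Klk12 (1.58-fold) and Klk7 (1.36-fold).

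Klk7, Klk8 and Klk12 were called against untreated skin on day 7 and not at 24 h, and the size was largest for Klk8. Klk8 was 8.74, 8.86, 8.20 and 8.52 in control wounds at 24 h and 7.75, 8.71, 8.19, 8.76 and 9.79 in untreated skin, and it was not called (-0.06 ± 0.24). Control wounds of day 7 were then higher than those of 24 h by 1.64 ± 0.24 (3.11-fold, adjusted p = 9.87e-07 by limma), with no overlap. Klk9, Klk5 and Klk7 were also higher on day 7 than at 24 h, by 1.20, 0.58 and 0.47, so that 4 of the 8 were called, where 14.1% of all probe sets were called higher. Klk10 was called in none of the 3 comparisons among control wounds and untreated skin. The untreated array with the highest Klk8 level, replicate 5, is the one least like its group. Without it the same comparisons called 4, 7 and 4 members, and the Klk8 difference of day 7 control wounds from untreated skin became 1.86.

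In IL-22-Fc wounds of day 7 all 8 were higher than in untreated skin, where 21.9% of all probe sets were called higher, up to 23.8-fold for Klk6 and 12.2-fold for Klk9, and least for Klk5 (0.41 ± 0.12, log2). In PDGF wounds all 8 were higher as well, where 24.5% were called higher, by 0.51 (Klk5) to 3.79 (Klk6). With the arrays of these 2 groups only 5 passed, with Klk5, Klk8 and Klk10 not called, and with the 5′ control level as a covariate, which was 12.07 in PDGF wounds and 12.71 in untreated skin on average, 6 passed, with Klk5 and Klk10 not called. In VEGF wounds Klk6, Klk8 and Klk9 were higher and Klk5 was lower (-0.81 ± 0.12, adjusted p = 1.09e-06 by limma), where 22.4% of all probe sets were called higher and 22.9% lower. These 4 of 8 are near the 45.3% of all probe sets called in either direction.

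Across the 9 groups, IL-22-Fc on day 7 had the highest mean for 7 of the 8 genes, and for Klk5 PDGF on day 7 was highest (10.20 ± 0.13, SD, n = 3) with IL-22-Fc next (10.10 ± 0.08, n = 5) and their arrays overlapping. The lowest group was untreated skin for Klk6, Klk9 and Klk12, VEGF on day 7 for Klk5, Klk7, Klk10 and Klk11, and PDGF at 24 h for Klk8. The group means spanned 4.58 for Klk6, 3.61 for Klk9, 2.16 for Klk8, 1.81 for Klk11, 1.76 for Klk12 and 1.23 to 1.31 for Klk5, Klk7 and Klk10. Groups next to each other in this order mostly overlapped: for Klk5 all 8 neighbouring pairs did, for Klk7, Klk10 and Klk11 7 of 8, and for the others 6 of 8. For Klk6 the breaks were between untreated skin and the wounds and between PDGF on day 7 and IL-22-Fc on day 7.

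Over the 9 group means, which share control and probe normalization and give a description only, Klk9 and Klk12 were most alike (Pearson r = 0.96, n = 9 groups), followed by Klk11 with Klk12 and Klk7 with Klk11 (0.95 each). Klk5 and Klk6 were least alike (r = 0.19). Outside the family, the genes whose group means were most like the mean standardized profile of the 8 were Slc16a14 (r = 0.98), a member of the monocarboxylate transporter family, Trex2 (0.98), a keratinocyte DNA exonuclease, and Acpp (0.98), a secreted acid phosphatase. Next came Serpina9, a serine protease inhibitor, and Teddm3 (0.97 each).

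A list of protease inhibitors set beside the kallikreins was measured with 11 probe sets, and whether each inhibits these kallikreins was not tested. After IL-22-Fc on day 7, 5 were higher, 1 was lower and 5 were not called, with a median of 0.24. Of all probe sets 2.81% were called higher and 2.64% lower. Spink12 rose by 3.04 ± 0.34 and Wfdc12, a whey acidic protein family inhibitor, by 2.42 ± 0.19, and Wfdc5 and Spint1 (an inhibitor of matriptase) by 1.02 and 0.70. Spink5 was higher by 0.60 ± 0.11 (adjusted p = 0.00246 by limma). Serpina12 (vaspin), which inhibits KLK7 in humans, fell by 2.96 ± 0.22 (adjusted p = 3.45e-08).

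After VEGF, where 8.74% of all probe sets were called lower, 8 of the 11 inhibitors were lower and none higher. Their median was -0.67, close to that of the kallikreins. Among them Wfdc12 fell by 0.97, Wfdc5 by 0.83, Spint1 by 0.81 and Spink5 by 0.67. After PDGF, with the low 5′ signal given above and 34.9% of all probe sets called, 2 were higher (Wfdc12 0.96 and Spint2 0.46) and 2 lower (Spink5 -0.64 and Wfdc5 -0.46). Spink5, chosen after its values were seen, was thus higher with the kallikreins after IL-22-Fc and lower with them after VEGF. After PDGF it was lower where Klk5, Klk9 and Klk10 were higher, on the arrays with low 5′ signal. The count of inhibitors called after PDGF was near the share of all probe sets called there.

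The proteins that kallikreins cut were measured with 9 probe sets of 8 genes, since Dsc1 has 2. After IL-22-Fc on day 7 the desmosomal cadherins Dsc1 (0.96 and 0.46 at its 2 probe sets) and Dsg1b (0.77 ± 0.18) were higher, while filaggrin, Flg, the granular layer protein whose breakdown keeps the stratum corneum moist, was lower (-1.68 ± 0.19, adjusted p = 6.95e-06 by limma). Corneodesmosin, Cdsn, was not called (0.17 ± 0.11). After VEGF, 5 probe sets were lower, with Cdsn at -1.05, and the thrombin receptor F2r was higher (1.03). Of all probe sets 8.74% were called lower and 5.96% higher. After PDGF, 5 were lower, with Dsc1 at -1.88 and -0.93 and Dsg1a at -1.58, and Cdsn was higher (0.44 ± 0.13), where 34.9% of all probe sets were called and the 5′ control level was 12.07 in PDGF wounds and 13.09 in control wounds. Its part in these list values was not tested.

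Other epidermal proteases were measured with 21 probe sets. After IL-22-Fc 4 were higher, where 2.81% of all probe sets were, and none lower, with a median of 0.08: Prss27 (3.22 ± 0.32), Tmprss11a (2.15 ± 0.24), Prss22 (1.46 ± 0.21) and bleomycin hydrolase, Blmh (0.63 ± 0.12). The membrane proteases matriptase (St14, 0.20 ± 0.10) and prostasin (Prss8, 0.14 ± 0.11) were not called. After VEGF 9 were lower, where 8.74% of all probe sets were, and none higher. Among them were Tmprss4 at -1.0, Tmprss11e at -0.89, St14 at -0.75 and Prss8 at -0.76. After PDGF, under the same limits, 6 were higher, with cathepsin L (Ctsl) at 1.72, and 3 lower, with Tmprss11e at -1.74.

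**Figure D4:**
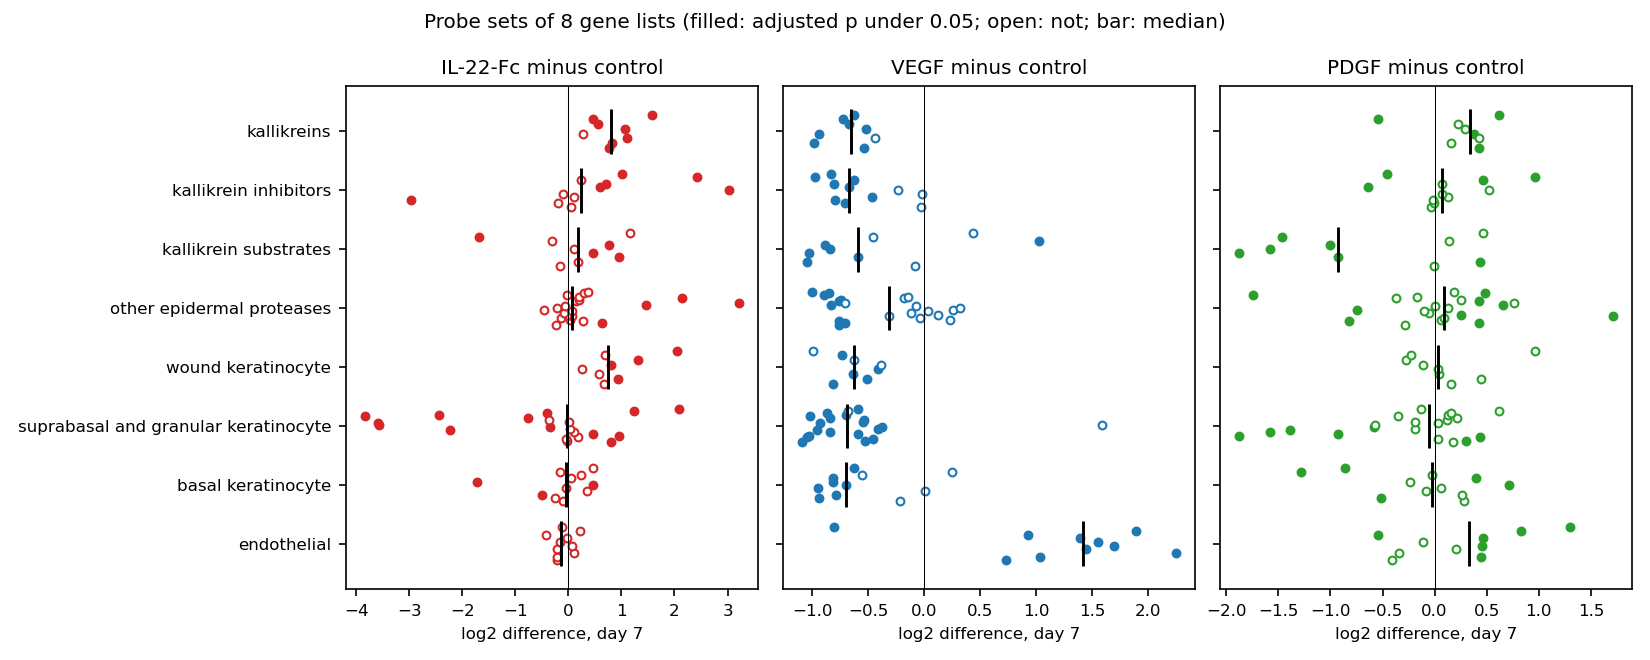
Log2 difference from control on day 7 for each probe set of 8 gene lists, after IL-22-Fc, VEGF and PDGF (filled points passed the adjusted p of 0.05, open points did not, black bars are list medians; the horizontal scales differ). After VEGF the medians of every epidermal list lie below 0 and the endothelial median at 1.42, and after IL-22-Fc the kallikreins and the wound keratinocyte genes have medians of 0.80 and 0.75 and the suprabasal list of -0.03.

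Markers of the epidermal layers moved beside the kallikreins in VEGF wounds, where 8.74% of all probe sets were called lower and 5.96% higher. There 18 of 20 suprabasal and granular probe sets (19 genes) were lower, with a median of -0.69, as were 7 of 11 basal keratinocyte genes (-0.70) and 5 of 8 wound keratinocyte genes (-0.63), while 9 of 10 endothelial genes were higher and 1 was lower (median 1.42), and 5 of 10 macrophage genes (0.40) and 9 of 10 pericyte and smooth muscle genes (0.63) were higher. Lower as well were 6 of 7 adipocyte genes (-0.81), 4 of 6 sebaceous gland genes (-0.54), 4 of 8 mast cell genes (-0.31), 4 of 12 hair follicle genes (-0.10) and 1 of 10 fibroblast genes (median 0.16), and none of 7 neutrophil genes was called by limma (2 at an unadjusted p under 0.05). The 1 of 10 fibroblast genes is near the share of all probe sets called lower. The kallikrein median of -0.65 is of the same size as the medians of the suprabasal, basal and wound keratinocyte lists. The mean level of the suprabasal list was 9.86 to 10.04 in VEGF wounds and 10.48 to 10.72 in control wounds, and that of the basal list 8.92 to 9.275 and 9.47 to 9.80. Their part in the kallikrein values was not tested.

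In IL-22-Fc wounds the layer markers did not move as 1 block. There 2.81% of all probe sets were called higher and 2.64% lower. Of the 20 suprabasal and granular probe sets 5 were higher and 8 lower, with a median of -0.03, and the mean level of the list was 9.91 to 10.09 in IL-22-Fc wounds and 10.48 to 10.72 in control wounds. Among those lower were Lce1m (-3.84), Krt77 (-3.59), Krt2 (-3.57) and loricrin, Lor (-2.44), cornified envelope and keratin genes of the upper layers, and among those higher were the transglutaminases Tgm3 (2.08) and Tgm1 (1.25). Of 11 basal keratinocyte genes 1 was higher and 2 lower, and of 8 wound keratinocyte genes 4 were higher (median 0.75). The wound keratinocyte median is of the same size as the kallikrein median of 0.80. The mean level of the wound keratinocyte list was 13.74 to 13.83 in IL-22-Fc wounds and 12.54 to 13.05 in control wounds. For the basal list it was 9.435 to 9.647 and 9.474 to 9.796. No gene of the 10 endothelial and 10 macrophage markers was called by limma, and 3 and 5 of them had an unadjusted p under 0.05. Among the other cell type lists, 3 of 7 neutrophil genes were higher (median 0.64), and 5 of 8 mast cell genes (-0.41), 3 of 7 adipocyte genes (-0.54), 1 of 10 fibroblast genes (-0.27) and 1 of 10 pericyte and smooth muscle genes (-0.23) were lower. Of the 12 hair follicle genes 1 was higher and 2 were lower, and none of the 6 sebaceous gland genes was called by limma (2 at an unadjusted p under 0.05). Whether these markers share in the kallikrein values was not tested.

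In control wounds of 24 h, 16 of 20 suprabasal and granular probe sets were lower than in untreated skin and none higher (median -0.59), and all 8 wound keratinocyte genes were higher (median 5.00), while the kallikrein median was 0.24. Of all probe sets 20.2% were called lower in that comparison and 19.3% higher. From 24 h to day 7 in control wounds, 13 suprabasal probe sets were higher and 1 lower (median 0.57), beside the 4 kallikreins that were higher (median 0.45). The hair follicle list was lower in control wounds than in untreated skin at 24 h for 3 of 12 genes and higher for none. That count is near the 20.2% of all probe sets called lower, and the list's mean level ranged from 5.35 to 11.21 over the untreated arrays.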

How the data were processed

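The authors scanned Affymetrix Mouse430V2 arrays, used RMA for normalization and, where an Entrez gene had several probe sets, chose the one of highest variance; the deposited intensity of 20672 probe sets on 42 arrays is on a linear scale (median 50.8), and its log2 was taken here. The submitters' processing notes name RMA and limma with no version. Fits were made with limma 3.58.1 (R 4.3.3) on group means with eBayes, over 18 arrays (day 7), 19 (24 h), 42 (comparisons with untreated skin or between control wounds) and 37 (difference of effects), with Benjamini-Hochberg adjustment over all probe sets and no filter on low values. Fits were checked on simulated data. Of the probe sets 17928 carry 1 gene symbol, 79 several and 2665 none. Single members were also compared by exact permutation tests. The number of arrays limits the precision.

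Named genes are every measured kallikrein and, of each other list, up to 4 that pass and 2 that do not after IL-22-Fc or VEGF on day 7, largest difference first, and the 5 genes most like the mean profile; the others named with values (Spink5, Spint2, Dsg1a, St14, Prss8, Ctsl, Tgm1 and Tgm3) were chosen after their values were seen. The members and lists were chosen with earlier results of these data known. Alternatives were other normalizations and filters, array weights, a pseudocount of 16, the 5′ control level as a covariate, other arrays in the fit, stricter calls, each array left out and, added after seeing the data, 2 VEGF arrays left out. Promoters are RefSeq's (GRCm38.p6); Y-linked genes are Uty, Eif2s3y and Kdm5d.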

Additional observations from a re-analysis of the deposited data

Results flagged for a closer look

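Of 64 groups of 4 or 5 arrays examined (8 genes in 8 groups), 4 held an array far from the others, where chance alone flags about 1 in 20 groups. Replicate 1 of IL-22-Fc at 24 h was such an array for Klk5 (9.76, next 9.21), Klk8 (9.62, next 8.66) and Klk9 (8.75, next 7.58). Replicate 1 of IL-22-Fc on day 7 was the low one for Klk11 (9.03, next 9.21). Whether these arrays differ in tissue taken or in RNA was not tested.

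The treatment effect differed between day 7 and 24 h by the interaction test of limma for 10 values. For IL-22-Fc it was larger on day 7 for Klk9 (1.43), Klk12 (1.21) and Klk11 (0.91, lost without replicate 2 of IL-22-Fc at 24 h, adjusted p = 0.051, and without replicate 1, 0.0601, or 2, 0.0543, of the 24 h controls). For VEGF it was lower on day 7 for Klk5 (-0.97), Klk8 (-0.88), Klk11 (-0.85), Klk7 (-0.84) and Klk10 (-0.83). For PDGF it was higher for Klk9 (0.80) and Klk5 (0.52), a count near the 18.1% of all probe sets that passed in that direction.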

How the results depend on the processing

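Of 85 called member differences, each of the 7 settings quantile normalization, equal medians, both filters, array weights, trended robust priors and a pseudocount of 16 kept 84 or 85. With the 5′ control level as a covariate 63 were kept, 20 were lost and 2 changed sign, both with PDGF on day 7: Klk8 against control became 0.14 and Klk10 in IL-22-Fc minus PDGF became -0.27; the cause was not tested. That covariate gave 0 called members on day 7 for PDGF against control, for IL-22-Fc minus PDGF, for VEGF minus PDGF and for the PDGF effect of day 7 minus 24 h, and left 7, 7 and 8 for IL-22-Fc, VEGF and their difference. On day 7 its values in PDGF wounds, 11.92 to 12.18, did not overlap those of the other groups. It therefore cannot be separated from the PDGF group in these comparisons. Of 56 further differences that were not called, 21 changed sign under some setting, and all of those were 0.48 or less in size.

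With all 42 arrays in one fit, PDGF against control on day 7 had 2 called, IL-22-Fc minus VEGF at 24 h 0 and the VEGF effect of day 7 minus 24 h 3, and the Klk8 call after IL-22-Fc was lost (adjusted p = 0.303). With the arrays of the 2 groups only, control wounds at 24 h against untreated skin had 2 and PDGF on day 7 against untreated skin 5. Requiring 1.5-fold left 1 for PDGF against control on day 7, 2 for control wounds at 24 h against untreated skin, 2 for control wounds of day 7 against 24 h and 1 for the PDGF effect, and an adjusted p under 0.01 left 2, 0 and 0 for PDGF on day 7, IL-22-Fc minus VEGF at 24 h and the PDGF effect. On day 7 the 1.5-fold rule also left 5 for IL-22-Fc against control, 5 for VEGF against control and 5 for IL-22-Fc minus PDGF. Of all probe sets it left 2.30%, 5.55% and 17.9% in either direction. After IL-22-Fc, Klk7 (1.47-fold) and Klk8 (1.38-fold) were called but fell short of 1.5-fold. IL-22-Fc minus PDGF at 24 h, with none called in the fit reported and 2 members at an unadjusted p under 0.05, had 1 with quantile normalization or either filter and 2 with array weights.

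Leaving out each array in turn gave 2 to 5 called for PDGF against control on day 7 (2 without replicate 1 of PDGF), 0 to 1 for IL-22-Fc minus VEGF at 24 h (0 without replicate 3 of IL-22-Fc or replicate 2 or 3 of VEGF), 0 to 2 for IL-22-Fc minus PDGF at 24 h (2 without replicate 5 of IL-22-Fc, 1 without replicate 2 or 3 of control) and 0 to 3 for the PDGF effect (0 without replicate 2 of PDGF on day 7, and 1 without any of 8 other arrays). The counts for IL-22-Fc (6 to 8) and VEGF (7 to 8) against control on day 7 and for their difference (8) stayed within 1 of the values reported. Klk10 in IL-22-Fc minus PDGF passed in 5 of 18 such fits. No paired analysis was possible because the labels carry no replicate numbers that pair arrays across groups.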
